A study of Mus musculus with 15 samples.

Results

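Adrenal glands taken at the end of a 14 day course of dexamethasone were compared with adrenal glands taken before treatment, using the 3 arrays whose titles place the harvest at the end of treatment (called withdrawal here) and the 4 arrays titled as pre-treatment controls, 7 of the 15 arrays of the series. All mice were wild type C57BL/6J males. Every array is labelled with an age of 6 weeks, and the drug was given in the drinking water. Controls were taken before treatment, so the drug and the days that passed during it cannot be told apart. The other 8 arrays, from 3 and 7 days after the drug was stopped, entered the model for its estimate of the spread between arrays. They also counted in the choice of probe set for genes with several. RNA came from whole glands, cortex and medulla together, and in such bulk samples fewer cells of a type and less RNA per cell cannot be told apart. Each array is titled as a biological replicate.

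Dexamethasone is a synthetic glucocorticoid that acts on the hypothalamus and pituitary to lower the secretion of ACTH. ACTH binds a receptor on cells of the zona fasciculata, the middle layer of the adrenal cortex, raises cyclic AMP there and so drives the uptake and synthesis of cholesterol and its conversion to corticosterone. The outer layer, the zona glomerulosa, makes aldosterone mainly under the control of angiotensin II and potassium, and the medulla makes catecholamines. When ACTH is low for a long time the zona fasciculata shrinks and loses cells. Macrophages, in the adrenal as elsewhere, take up dying cells and their lipid.

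Values are log2 levels after robust multi-array averaging (RMA), with 1 probe set for each of 21439 genes. A difference is the mean at withdrawal minus the mean in control, in log2 units, given with the standard error of the model. A gene is said to have risen or fallen where limma's adjusted p, over all 21439 genes, was under 0.05. By that rule 534 genes rose, which is 2.49% of those tested, and 387 fell, which is 1.81%, or 4.3% in either direction. For some lists below, counts at an unadjusted p under 0.05 are also given. The share of all genes at that cut is not given here, so those counts cannot be set against a background. The groups did not overlap for 3232 genes (15.1%), of which 1745 were higher (8.14%) and 1487 lower (6.94%). Star, Cyp11a1 and Th, defining genes of the cortex and medulla, were at 8.91 or higher on all 7 arrays. The difference was at least 2-fold for 151 of the genes that rose (0.704%) and 78 of those that fell (0.364%). The median gene differed by -0.01. Each array was centred on its own median gene in an alternative chosen after the data were seen (median-gene centring), which put the median difference at -0.12 and gave 341 genes higher and 853 lower, so that 28.6% of calls were higher against 58.0% here. A further quantile normalization gave 48.6%. On leaving out withdrawal replicate 2, 243 genes were higher and 216 lower. On leaving out withdrawal replicate 1, 338 were higher, and on leaving out control replicate 4, 354. A level under 2 is called the floor here, because most unexpressed genes lie there and cannot be seen to fall. The control mean was at the floor for 9968 genes, among them 60 of those that rose.

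**Figure D1:**
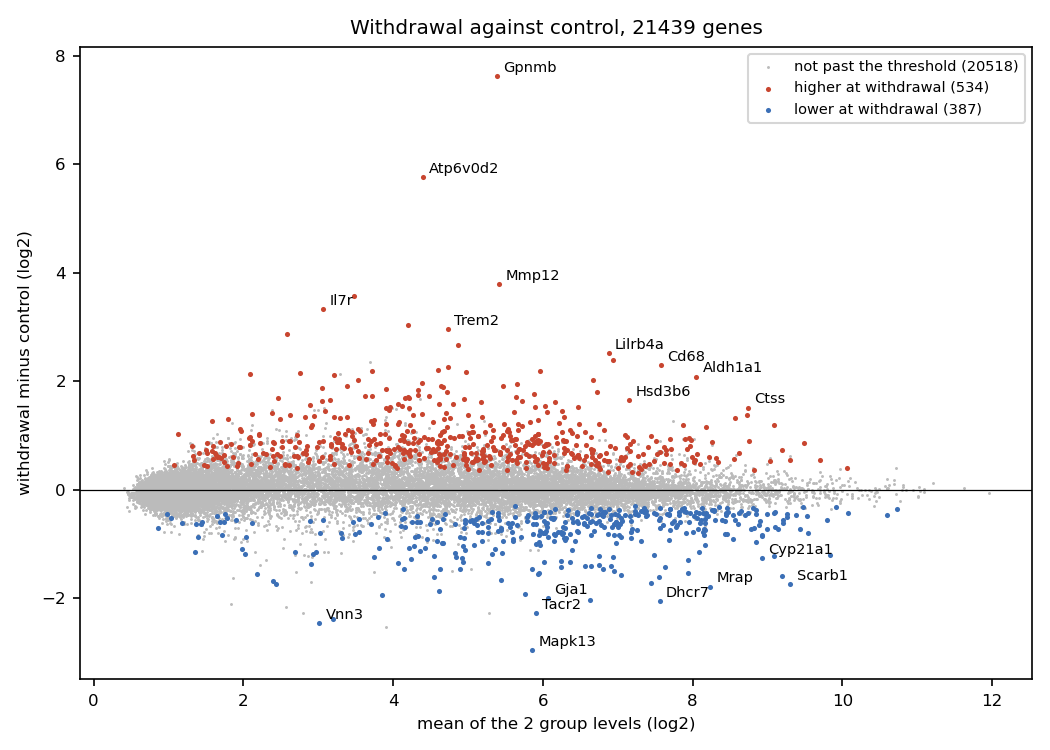
Difference between withdrawal and control (log2, vertical) against the mean of the 2 group levels (log2, horizontal) for 21439 genes, 1 point a gene, with the 534 that rose in red and the 387 that fell in blue. Gpnmb stands highest at 7.63 and Mapk13 lowest at -2.96, and most called genes lie above the floor.

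The largest fall was in Mapk13, a stress-activated protein kinase of the p38 family. Its levels were 7.29, 6.92, 7.42 and 7.72 in control and 3.97, 4.23 and 4.94 at withdrawal, so that every withdrawal array lay more than a log2 unit under every control array (-2.96 ± 0.22, 7.78-fold lower, limma, adjusted p = 7.6e-06). Tacr2, the neurokinin A receptor, measured 7.13, 6.60, 7.21 and 7.22 in control and 4.91, 4.24 and 5.17 at withdrawal (-2.27 ± 0.23, adjusted p = 7.87e-05). Gja1 encodes connexin 43, the main gap junction protein of the inner cortex. It measured 7.56, 6.27, 7.08 and 7.38 in control and 5.09, 4.95 and 5.16 at withdrawal, apart by more than a log2 unit, and fell 4-fold (adjusted p = 0.000359). Rhcg, an ammonium transporter, differed by -2.39 ± 0.48 and Vnn3, a pantetheinase, by -2.46 ± 0.49 (limma, adjusted p = 0.0106 and 0.00977), with withdrawal means of 2.00 ± 0.26 and 1.78 ± 0.14 (SD, n = 3) at the edge of the floor. The beta-defensins Defb19 and Defb25 fell by 1.87 ± 0.25 and 1.61 ± 0.21, the lens crystallin Cryba4 differed by -1.93 ± 0.31 and the secreted protein suprabasin (Sbsn) by -1.60 ± 0.13. Abcb1b, an efflux pump of the P-glycoprotein family that adrenal cortex expresses strongly, measured 9.86, 10.04, 10.02 and 10.02 in control and 8.65, 7.78 and 8.74 at withdrawal (-1.59 ± 0.17, adjusted p = 0.000114). Within the controls, replicate 2 was the lowest array for Mapk13, Tacr2, Gja1, Rhcg, Vnn3 and Cryba4. All of these genes passed the threshold in each of the 7 fits that left out 1 array.

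Among the largest rises that belong to none of the pathway groups below, Spink4, a secreted protease inhibitor, measured 1.13, 1.16, 1.07 and 1.26 in control and 5.55, 3.93 and 2.57 at withdrawal, from the floor and with a wide spread at withdrawal (2.86 ± 0.47, limma, adjusted p = 0.00276). Slamf7, a receptor of immune cells, measured 3.16, 3.38, 3.62 and 3.83 in control and 4.13, 6.93 and 6.05 at withdrawal, with replicate 1 far below the other withdrawal arrays (adjusted p = 0.0134, and 0.0658 without withdrawal replicate 2). Anpep, aminopeptidase N, measured 5.71, 5.88, 5.33 and 5.68 in control and 7.45, 8.09 and 7.50 at withdrawal (2.03 ± 0.25, adjusted p = 0.00033), and Ggt5, which cleaves leukotriene C4 and glutathione, measured 4.66, 4.39, 4.38 and 4.64 in control and 6.84, 6.29 and 6.13 at withdrawal (1.90 ± 0.20, adjusted p = 0.000114). In both genes the withdrawal arrays stood clear of the controls. Wfdc17, a small secreted protein of activated macrophages, measured 5.54, 6.48, 5.40 and 5.53 in control and 8.41, 8.29 and 7.70 at withdrawal, with control replicate 2 the highest of its group. The membrane proteins Ms4a7 and Igsf6, both expressed by macrophages, differed by 1.80 ± 0.20 and 1.95 ± 0.37.

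Of the 24 measured genes of the ACTH receptor and cyclic AMP pathway, 3 fell, 0 rose and 21 did not pass, against 1.81% and 2.49% of all genes, with a median of 0.08. Median-gene centring gave 5 lower. Mrap, the accessory protein that carries the ACTH receptor to the cell surface, measured 9.18, 8.92, 9.21 and 9.22 in control and 7.43, 7.24 and 7.36 at withdrawal. The 2 groups were 1.49 log2 units apart at their nearest arrays, and the gene fell 3.45-fold (-1.79 ± 0.13, limma, adjusted p = 7.6e-06). Prkar2b is a regulatory subunit of protein kinase A, the kinase that cyclic AMP activates. Its control arrays lay within 0.10 of each other, at 8.08, 8.11, 8.12 and 8.03, and its withdrawal arrays at 6.85, 6.80 and 7.00 (-1.20 ± 0.17, adjusted p = 0.000678). The phosphodiesterase Pde8b, which breaks down cyclic AMP in fasciculata cells, measured 5.96, 5.37, 6.08 and 6.22 in control and 4.78, 4.74 and 4.96 at withdrawal (-1.08 ± 0.26, adjusted p = 0.0274). Its adjusted p was 0.103 without withdrawal replicate 2. The receptor gene itself, Mc2r, measured 9.47, 9.25, 9.47 and 9.51 in control and 9.25, 9.25 and 9.37 at withdrawal, and its groups overlapped (-0.13 ± 0.10, adjusted p = 0.581).

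Steroid synthesis was represented by 11 measured genes, of which 6 fell and 2 rose while 3 missed the threshold, with a median of -0.35. Cyp21a1, the steroid 21-hydroxylase, measured 9.54, 9.48, 9.57 and 9.64 in control and 8.09, 8.44 and 8.36 at withdrawal, which put the highest withdrawal array 1.03 under the lowest control array. Cyp11b1, which completes corticosterone, measured 9.75, 9.85, 9.86 and 9.72 in control and 9.19, 8.78 and 9.23 at withdrawal, and Fdx1, the electron donor of the mitochondrial steroid enzymes, measured 9.18, 9.22, 9.22 and 9.08 in control and 8.33, 8.64 and 8.43 at withdrawal. Neither pair of groups overlapped. Cyp11a1, the enzyme that opens the pathway, measured 10.82, 10.77, 10.85 and 10.85 in control and 10.29, 10.37 and 10.44 at withdrawal; its fall was 1.37-fold against the 2.4-fold of Cyp21a1. When its most variable probe set was used instead, Cyp11a1 had an adjusted p of 0.532, and with the mean of its probe sets it was 0.0849. Star, which moves cholesterol into mitochondria, measured 10.90, 11.01, 10.84 and 10.87 in control and 10.51, 10.61 and 10.54 at withdrawal (-0.35 ± 0.08, limma, adjusted p = 0.0198, and 0.0707 without withdrawal replicate 1). The 2 genes that rose were Cyp11b2, the aldosterone synthase, at 8.64, 8.24, 8.29 and 8.03 in control and 8.89, 9.40 and 9.33 at withdrawal, and Hsd3b6, a 3-beta-hydroxysteroid dehydrogenase of the zona glomerulosa, at 5.52, 6.86, 6.30 and 6.60 in control and 8.18, 7.98 and 7.77 at withdrawal. Cyp17a1, an enzyme that adult mouse adrenals do not use, lay at the floor on all 7 arrays, between 0.90 and 1.43.

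Genes of cholesterol uptake, transport and export went both ways: Scarb1, Gramd1b and Stard4 fell, while Pltp, Apoe, Abcg1, Stard5, Mylip and Lipa rose. In the list of 19 measured genes for uptake, storage and export, 3 fell, 6 rose and 10 did not pass, with a median of 0.12. Median-gene centring turned this balance, with 6 lower and 2 higher. Scarb1, the receptor that takes cholesteryl ester from high density lipoprotein, measured 10.38, 10.21, 10.08 and 10.03 in control and 7.97, 8.78 and 8.55 at withdrawal, and its groups were 1.24 apart at the nearest arrays. Gramd1b, which moves cholesterol from the plasma membrane to the endoplasmic reticulum, measured 8.90, 8.57, 8.54 and 8.83 in control and 7.14, 7.03 and 7.33 at withdrawal. It fell 2.91-fold (-1.54 ± 0.12, limma, adjusted p = 1.1e-05), with no overlap between the groups. Stard4, a soluble sterol carrier, differed by -0.64 ± 0.16 (adjusted p = 0.0361). Among the genes that rose, Pltp, the phospholipid transfer protein of plasma lipoproteins, measured 5.48, 5.88, 5.41 and 5.35 in control and 6.92, 7.18 and 6.82 at withdrawal (1.44 ± 0.16, adjusted p = 0.000146). Apolipoprotein E, Apoe, measured 4.02, 4.07, 4.07 and 4.05 in control and 4.54, 5.15 and 4.75 at withdrawal (0.76 ± 0.13, adjusted p = 0.00397); its control arrays lay within 0.06 of each other and every withdrawal array was higher. The sterol exporter Abcg1 measured 4.36, 4.26, 4.05 and 3.82 in control and 4.96, 5.72 and 4.73 at withdrawal, with withdrawal replicate 2 the highest (1.01 ± 0.27, adjusted p = 0.0465). Abca1, the exporter that loads apolipoprotein A-I, pointed the other way without passing, at -0.51 ± 0.20 (adjusted p = 0.207). Stard5, Mylip and Lipa also rose, by 0.72 ± 0.18, 0.92 ± 0.25 and 0.48 ± 0.12. The threshold was lost on leaving out 1 array for 5 of these genes, with adjusted p of 0.134 for Stard4 without withdrawal replicate 1, 0.218 for Abcg1 without withdrawal replicate 2, 0.127 for Stard5 without withdrawal replicate 1, 0.187 for Mylip without withdrawal replicate 3 and 0.173 for Lipa without withdrawal replicate 2. Pltp, Apoe, Abcg1 and Lipa are also expressed by macrophages, whose marker genes rose in the same arrays; their part in these rises was not tested.

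Enzymes of the late steps of cholesterol synthesis were lower. All 10 measured enzymes from lanosterol to cholesterol had lower means at withdrawal, 4 of them past the threshold and 0 higher, with a median of -0.52. Of the 7 measured enzymes from mevalonate to squalene epoxide, 1 fell (2 with median-gene centring) and 0 rose, with a median of -0.36. Dhcr7, which makes cholesterol from 7-dehydrocholesterol in the last step, measured 8.80, 8.47, 8.61 and 8.45 in control and 6.45, 6.69 and 6.46 at withdrawal, a gap of 1.76 between the nearest arrays (-2.05 ± 0.16, 4.13-fold lower, limma, adjusted p = 1.1e-05). Fdps, the farnesyl diphosphate synthase, measured 8.51, 7.76, 8.80 and 8.17 in control and 6.51, 6.83 and 6.41 at withdrawal (-1.72 ± 0.21, adjusted p = 0.000287). Lss, which closes the ring to lanosterol, differed by -1.03 ± 0.21, the reductase Tm7sf2 by -1.22 ± 0.25 and the methyl oxidase Msmo1 by -0.62 ± 0.15. Without 1 array the adjusted p was 0.0688 for Lss without withdrawal replicate 2, 0.0605 for Tm7sf2 without withdrawal replicate 3 and 0.114 for Msmo1 without withdrawal replicate 1. Sqle and Cyp51, at -0.92 ± 0.34 and -0.79 ± 0.35, had no withdrawal array above a control array and did not pass (adjusted p = 0.166 and 0.259). Hmgcs1, an early enzyme of the route, overlapped between groups at 0.15 ± 0.23. In the list of 8 measured sterol sensors 0 genes passed by limma, with 1 higher and 4 lower at an unadjusted p under 0.05; with median-gene centring 4 of the 8 passed, all lower. Insig1, which retains the sterol sensor in the endoplasmic reticulum, measured 6.92, 6.64, 6.90 and 6.88 in control and 6.08, 6.33 and 6.28 at withdrawal (-0.60 ± 0.19, adjusted p = 0.0979).

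The start of Dhcr7 is shown because this gene had the largest fall among the enzymes of cholesterol synthesis. RefSeq lists 3 promoter windows of 300 bases for it, and the first lies at chr7:143822917-143823216 (GRCm38.p6, plus strand), from 250 bases before the transcript start to 50 after it. Capitals mark a match at position -52 to CAAGGTCA, a sequence bound by SF-1 (the product of Nr5a1), the factor that adrenal cortex uses for most steroid genes.
Dhcr7: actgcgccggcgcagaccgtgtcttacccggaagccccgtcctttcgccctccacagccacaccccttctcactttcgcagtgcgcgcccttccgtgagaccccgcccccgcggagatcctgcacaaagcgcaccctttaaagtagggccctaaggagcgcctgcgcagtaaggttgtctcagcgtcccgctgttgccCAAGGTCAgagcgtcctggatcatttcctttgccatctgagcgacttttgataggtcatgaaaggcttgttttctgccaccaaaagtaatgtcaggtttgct
The sequence CAAGGTCA was searched on both strands and was found in 1.56% of all 32841 promoter windows and in 1.56% of the 384 windows of genes that fell, so the share did not stand above the background. Of the 5 cholesterol synthesis genes that fell, 4 had windows, and Dhcr7 alone held a match. The sterol regulatory sequence TCACNCCAC was in 0 of their 6 windows, against 1.24% of all windows. The cyclic AMP response sequence TGACGTCA was in 0 of the 6 as well, against 1.79% of all windows and 1.82% of those of genes that fell. These are matches of letters and show no binding. Nr5a1 itself measured 6.44, 6.43, 6.25 and 6.14 in control and 5.88, 6.01 and 6.14 at withdrawal, with the nearest arrays of the 2 groups at the same rounded value (-0.31 ± 0.11, adjusted p = 0.165).

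The desaturases Fads1 and Fads2, the elongase Elovl5 and the acetyl-CoA source Acly fell, while Fasn, Acaca and Scd1 did not pass. In the list of 22 measured genes for fatty acid and triglyceride synthesis, 9 fell (5 of them in each fit without 1 array), 0 rose and 13 did not pass, with a median of -0.31 against -0.01 over all genes. Fads1 and Fads2 are the desaturases that make arachidonic acid, the fatty acid stored in adrenal cholesteryl esters. Fads1 measured 9.72, 9.93, 9.62 and 9.54 in control and 8.38, 8.45 and 8.62 at withdrawal (-1.22 ± 0.15, limma, adjusted p = 0.000286). Fads2 measured 10.57, 10.47, 10.44 and 10.26 in control and 8.93, 9.27 and 9.51 at withdrawal (-1.20 ± 0.14, adjusted p = 0.000254). The nearest arrays of the 2 groups were 0.92 apart for Fads1 and 0.75 apart for Fads2. Acly, which makes cytosolic acetyl-CoA from citrate, measured 9.52, 9.09, 9.41 and 9.31 in control and 8.34, 8.26 and 8.51 at withdrawal (-0.96 ± 0.12, adjusted p = 0.000254). Gpam, the acyltransferase that opens triglyceride synthesis, differed by -0.84 ± 0.14 (adjusted p = 0.00383) and the malic enzyme Me1, a source of NADPH, by -0.65 ± 0.12 (adjusted p = 0.00609). The elongase Elovl5 differed by -0.56 ± 0.12 and the acyltransferase Agpat2 by -0.69 ± 0.15, with adjusted p of 0.0625 for Elovl5 without withdrawal replicate 2 and 0.0596 for Agpat2 without withdrawal replicate 2. Scd1, the stearoyl-CoA desaturase, differed by -0.57 ± 0.20 and its groups overlapped at control replicate 3 (adjusted p = 0.127). Fatty acid synthase, Fasn, and acetyl-CoA carboxylase, Acaca, differed by -0.15 ± 0.22 and -0.20 ± 0.22, with overlapping groups.

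Among 15 measured genes of lipid droplet coats and lipases, 2 fell and 1 rose, with a median of -0.23. Plin5, a droplet coat protein that tethers droplets to mitochondria, measured 4.22, 4.68, 5.38 and 4.68 in control and 3.26, 3.66 and 3.24 at withdrawal (-1.35 ± 0.28, limma, adjusted p = 0.0142). G0s2, an inhibitor of the main triglyceride lipase, measured 6.76, 6.78, 6.48 and 6.93 in control and 7.71, 7.80 and 7.02 at withdrawal (0.77 ± 0.16, adjusted p = 0.0147). Fitm2, which helps droplets to bud, differed by -0.78 ± 0.19. Each of the 3 lost the threshold on leaving out 1 array, with adjusted p of 0.0555 for Plin5 without withdrawal replicate 1, 0.0867 for G0s2 without withdrawal replicate 2 and 0.139 for Fitm2 without withdrawal replicate 3. Plin2, the general droplet coat, overlapped at 0.18 ± 0.13.

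Of 21 measured genes of fatty acid oxidation, 7 fell (5 in each fit without 1 array), 1 rose and 13 did not pass, with a median of -0.29. Hadhb, 1 of the 7, had means of 2.18 in control and 1.62 at withdrawal, at the edge of the floor. Acadm, the medium-chain acyl-CoA dehydrogenase, measured 9.56, 9.42, 9.53 and 9.50 in control and 8.92, 8.61 and 8.82 at withdrawal (-0.72 ± 0.09, limma, adjusted p = 0.000293). Echs1, the enoyl-CoA hydratase, measured 8.56, 8.33, 8.51 and 8.71 in control and 7.89, 7.75 and 7.63 at withdrawal (-0.77 ± 0.12, adjusted p = 0.00228). Cpt2, which releases fatty acids into mitochondria, measured 8.09, 8.01, 7.95 and 8.10 in control and 7.41, 7.58 and 7.42 at withdrawal (-0.57 ± 0.10, adjusted p = 0.00633). None of these 3 genes had overlapping groups. Hadh and Hadha, which act on the later steps of each cycle, fell by 0.49 ± 0.10 and 0.44 ± 0.09. The gene that rose, the coactivator Ppargc1a, had both group means at the floor, at 1.34 and 1.94. It measured 1.18, 1.34, 1.37 and 1.48 in control and 1.78, 2.35 and 1.69 at withdrawal, and its adjusted p was 0.0926 without withdrawal replicate 2. In the citrate cycle and NADPH list 5 of 21 fell and 0 rose, 19 of 21 means were lower and the median was -0.23; with median-gene centring 10 passed, all lower. Pcx, pyruvate carboxylase, which refills the cycle with oxaloacetate, stood out there at 6.89, 6.37, 6.75 and 6.81 in control and 5.17, 5.01 and 5.28 at withdrawal (-1.55 ± 0.12, 2.92-fold lower, adjusted p = 1.1e-05). Its groups were 1.08 apart at the nearest arrays, and it was the 1 gene of the 5 that passed in every fit without 1 array. Of 52 respiratory chain and ATP synthase genes 50 had lower means, 2 fell, 0 rose and the median was -0.14. The 2 calls are 3.85% of that list, near the 4.3% of all genes. With median-gene centring 9 passed, all lower. The 2 that fell without it were Uqcrfs1, the Rieske protein, at -0.48 ± 0.08 and Ndufs8, a subunit of complex I, at -0.42 ± 0.08 (adjusted p = 0.0589 for Ndufs8 without withdrawal replicate 2).

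**Figure D2:**
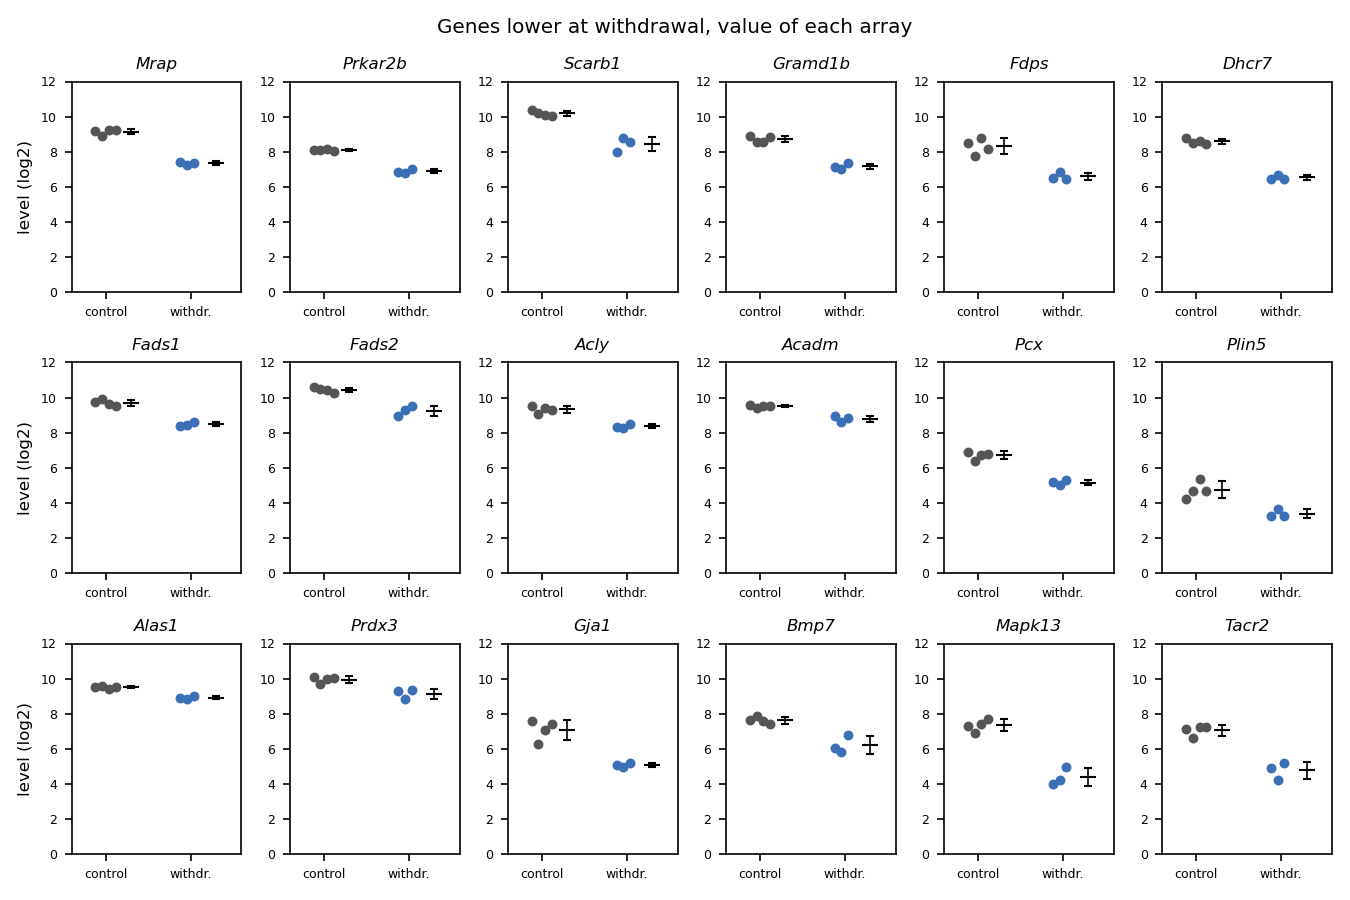
Level (log2, RMA) of 18 genes that fell, 1 panel a gene on a common scale from 0 to 12, with the 4 control arrays in grey, the 3 withdrawal arrays in blue and black bars for mean ± SD. In each panel every withdrawal array lies below every control array, by 1.49 between the nearest arrays for Mrap and 1.08 for Pcx.

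Other metabolic enzymes went both ways. Alas1, which sets the rate of heme synthesis, measured 9.52, 9.60, 9.41 and 9.53 in control and 8.90, 8.81 and 8.99 at withdrawal (-0.61 ± 0.12, limma, adjusted p = 0.0109). It was the 1 gene of 11 in the heme list to pass, which is 9.09% against 4.3% of all genes. Without withdrawal replicate 2 its adjusted p was 0.0595, and with median-gene centring 2 of the 11 passed. Prdx3, the mitochondrial peroxiredoxin that removes peroxide, measured 10.08, 9.67, 9.97 and 10.04 in control and 9.27, 8.81 and 9.34 at withdrawal and was the 1 of 23 antioxidant genes to pass (-0.80 ± 0.14, adjusted p = 0.00509), against 5, all lower, with median-gene centring. The 1 call is 4.35% of the antioxidant list, near the 4.3% of all genes. Of 19 genes of glutathione conjugation and detoxification, 2 fell (4 with median-gene centring) and 3 rose. The microsomal glutathione transferase Mgst2 differed by -1.40 ± 0.25 and the cytosolic one Gstt1 by 0.96 ± 0.12, while Gstm7 measured 6.51, 6.09, 6.67 and 6.37 in control and 5.30, 5.44 and 5.49 at withdrawal, 2-fold lower. Aldh1a1, a retinaldehyde dehydrogenase, measured 6.73, 7.28, 6.97 and 7.04 in control and 9.66, 9.44 and 8.18 at withdrawal, 4.24-fold higher (2.08 ± 0.37, adjusted p = 0.00525), with withdrawal replicate 3 the lowest of the 3 and still above every control. Its near relative Aldh1a7 measured 4.42, 6.32, 4.33 and 4.39 in control and 7.72, 7.47 and 5.97 at withdrawal; control replicate 2 lay inside the withdrawal range, and the adjusted p was 0.0932 for Aldh1a7 without withdrawal replicate 2. The 2 genes are close in sequence and their probe sets could share signal. Ldhb, the heart form of lactate dehydrogenase, measured 7.32, 7.16, 7.06 and 7.58 in control and 8.43, 8.53 and 8.47 at withdrawal (1.20 ± 0.12, adjusted p = 6.4e-05). It was the 1 of 16 glycolysis genes to pass, which is 6.25% against 4.3% of all genes. With median-gene centring 3 others were lower. Gapdh measured 10.57, 10.51, 10.56 and 10.58 in control and 10.30, 10.41 and 10.33 at withdrawal (-0.21 ± 0.08, adjusted p = 0.197).

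Genes of macrophages filled with lipid held the largest rises of the comparison. The macrophage lists were chosen with earlier results of these data known, so that they hold such rises is a description and not a test. Of 18 measured members of that list 9 rose (6 of them in each fit without 1 array), 0 fell and 9 did not pass, with a median of 0.80. Gpnmb, a membrane glycoprotein of lipid-laden and lysosome-rich macrophages, measured 1.56, 1.02, 1.68 and 2.03 in control and 9.03, 9.81 and 8.77 at withdrawal, a step from the floor to a level near the top of the scale (7.63 ± 0.82, 198-fold, limma, adjusted p = 0.000118). Atp6v0d2, a proton pump subunit used by macrophages and osteoclasts, measured 1.09, 2.07, 1.35 and 1.55 in control and 7.05, 8.01 and 6.79 at withdrawal, also from the floor (5.77 ± 0.81, adjusted p = 0.000844). Both sizes start from control levels at the floor, below which levels have no order. Trem2, a lipid-sensing receptor of macrophages, measured 3.04, 3.31, 3.27 and 3.38 in control and 6.13, 6.69 and 5.81 at withdrawal, with 2.43 between the nearest arrays. Mmp12, the macrophage elastase, measured 3.01, 3.74, 3.81 and 3.51 in control and 7.00, 7.75 and 7.17 at withdrawal, and Lgals3, galectin 3, measured 1.52, 2.12, 1.54 and 1.57 in control and 3.64, 4.40 and 3.48 at withdrawal. Fabp5, a fatty acid binding protein, measured 7.87, 7.85, 8.21 and 8.23 in control and 9.18, 9.54 and 9.52 at withdrawal, and its 2 further probe sets differed by 2.15 and 1.38. Within the withdrawal group, replicate 2 was the highest array for Gpnmb, Atp6v0d2, Trem2, Mmp12, Lgals3 and Fabp5. Itgax and Lpl, further genes of such cells, did not overlap between groups but missed the threshold, at 1.47 ± 0.42 and 0.71 ± 0.22 (adjusted p = 0.0672 and 0.0835). Fabp4, a fatty acid binding protein of adipocytes and macrophages, differed by -0.08 ± 0.12. The list mean lay between 5.54 and 5.59 on the control arrays and between 7.05 and 7.45 at withdrawal.

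Gpnmb had the largest rise of all genes, and its single promoter window from RefSeq is therefore shown. It lies at chr6:49036268-49036567 (GRCm38.p6, plus strand), and capitals mark a match at position -126 to ACANNNTGT, the core of the sequence that the glucocorticoid receptor binds.
Gpnmb: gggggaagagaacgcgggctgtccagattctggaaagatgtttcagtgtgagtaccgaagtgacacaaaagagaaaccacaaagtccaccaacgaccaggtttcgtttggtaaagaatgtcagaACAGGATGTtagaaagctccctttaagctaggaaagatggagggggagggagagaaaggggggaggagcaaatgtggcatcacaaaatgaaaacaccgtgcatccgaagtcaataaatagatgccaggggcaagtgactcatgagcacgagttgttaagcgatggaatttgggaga
This core, searched on both strands, was in 6.85% of all windows, in 7.05% of the 511 windows of genes that rose and in 4.43% of the 384 windows of genes that fell. Among the lipid-laden and general macrophage genes that rose it was in 3 of 23 windows. The sequence TCACGTGA, to which the lysosomal regulators of the MiT family bind, was absent from the Gpnmb window and from all 23 of these windows, against 0.974% of all windows. A match or its absence describes these letters in this window and says nothing of the factors.

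Most general macrophage genes rose. Of 35 measured, 24 rose, 0 fell and 11 did not pass, 34 of 35 means were higher and the median was 0.94. In each fit without 1 array, 17 of the 24 rose. Cd68, a lysosomal glycoprotein and standard macrophage marker, measured 6.16, 6.69, 6.38 and 6.49 in control and 8.73, 9.11 and 8.33 at withdrawal (2.29 ± 0.30, 4.9-fold, limma, adjusted p = 0.000471). Itgb2, the shared chain of the leukocyte integrins, measured 3.52, 3.56, 3.84 and 3.47 in control and 5.71, 6.35 and 5.53 at withdrawal (2.27 ± 0.31, adjusted p = 0.000661). Lilrb4a, an inhibitory receptor of myeloid cells, measured 5.72, 5.14, 5.65 and 5.96 in control and 8.08, 8.58 and 7.74 at withdrawal, and Mpeg1, a pore-forming protein of macrophages, measured 4.94, 5.08, 4.90 and 5.05 in control and 6.67, 7.08 and 6.54 at withdrawal. In these 4 genes all withdrawal arrays were above all control arrays. The lectin Clec4d measured 1.39, 2.21, 1.84 and 1.30 in control and 5.31, 6.11 and 4.36 at withdrawal and the adhesion receptor Cd84 measured 2.02, 3.00, 2.71 and 2.98 in control and 5.55, 6.27 and 5.32 at withdrawal, both with withdrawal replicate 2 highest. Clec7a, the receptor dectin-1, differed by 1.59 ± 0.34 (adjusted p = 0.0787 for Clec7a without withdrawal replicate 2). The list mean was between 4.47 and 4.61 in control and between 5.48 and 5.85 at withdrawal.

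Macrophage functions outside those lists moved in part. Of 23 measured genes for the engulfment of dead cells 4 rose, 0 fell and 19 did not pass, with a median of 0.25. Mertk, the receptor tyrosine kinase that binds dying cells through bridging proteins, measured 3.57, 3.78, 3.08 and 3.85 in control and 4.89, 5.64 and 4.34 at withdrawal (1.38 ± 0.30, limma, adjusted p = 0.0176). Its relative Axl and their ligand Gas6 did not overlap between groups and missed the threshold, at 0.41 ± 0.12 and 0.42 ± 0.12 (adjusted p = 0.0622 and 0.0598), and Tyro3 lay at the floor. Sirpa, which reads the signal that stops engulfment, differed by 0.85 ± 0.15, the leukocyte guanine nucleotide exchange factor Dock2 by 0.90 ± 0.16 and the GTPase Rac2, which Dock2 activates, by 1.21 ± 0.25. Of 14 complement genes 4 rose and 1 fell. Properdin (Cfp), which stabilises the alternative pathway, measured 2.65, 2.93, 2.78 and 2.50 in control and 4.26, 4.24 and 3.69 at withdrawal (1.35 ± 0.21, adjusted p = 0.0021), and C7, a terminal component, measured 6.14, 5.65, 5.80 and 5.67 in control and 7.12, 6.89 and 6.75 at withdrawal (1.10 ± 0.21, adjusted p = 0.00823). The receptors C5ar1 and C3ar1 differed by 1.26 ± 0.32 and 0.70 ± 0.18, and Cd59a, which protects cells from complement, by -0.65 ± 0.14. On leaving out 1 array the adjusted p was 0.0995 for Mertk without withdrawal replicate 2, 0.0619 for Rac2 without withdrawal replicate 2, 0.144 for C5ar1 without withdrawal replicate 2, 0.121 for C3ar1 without withdrawal replicate 2 and 0.0724 for Cd59a without withdrawal replicate 3.

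Lysosomal genes went both ways. Of 37 measured hydrolases and their activators 10 rose (5 with median-gene centring), 1 fell and 26 did not pass, with a median of 0.24. Ctss, cathepsin S, a protease of antigen-presenting cells, measured 7.87, 8.03, 7.96 and 8.05 in control and 9.41, 9.90 and 9.17 at withdrawal, with 1.12 between the nearest arrays (1.52 ± 0.20, limma, adjusted p = 0.000462). Acp5, the tartrate-resistant acid phosphatase, measured 5.37, 6.04, 4.80 and 5.16 in control and 6.64, 7.48 and 6.20 at withdrawal (1.44 ± 0.32, adjusted p = 0.0189), and the mannosidase Man2b1 differed by 0.70 ± 0.15. The levels of macrophage markers, given above, moved with these genes and their part was not tested. Smpd3, a neutral sphingomyelinase that is in the list although it is not a lysosomal enzyme, differed by 0.72 ± 0.13. It and Ctss were the 2 of the 10 that rose in each fit without 1 array; adjusted p was 0.105 for Acp5 without withdrawal replicate 2 and 0.098 for Man2b1 without withdrawal replicate 2. Ctsf, cathepsin F, fell by 0.46 ± 0.11 (adjusted p = 0.12 for Ctsf without withdrawal replicate 3). The abundant proteases Ctsd and Ctsb differed by 0.17 ± 0.09 and 0.19 ± 0.11 without passing. In the list of 30 membrane proteins and proton pump subunits 3 rose and 4 fell, with a median of -0.03. The pump subunits split: next to the rise of Atp6v0d2, Atp6v1h measured 8.55, 8.55, 8.59 and 8.48 in control and 7.77, 7.85 and 7.78 at withdrawal (-0.74 ± 0.08, adjusted p = 9.18e-05) and Atp6v1e1 measured 9.37, 9.35, 9.36 and 9.14 in control and 8.96, 8.88 and 8.82 at withdrawal (-0.42 ± 0.08, adjusted p = 0.0109). Both falling subunits serve the pump in all cells. Slc37a2, a sugar phosphate transporter, fell by 0.77 ± 0.13, and Slc15a3, a peptide transporter of immune cells, rose by 1.00 ± 0.21 (adjusted p = 0.0614 for Slc15a3 without withdrawal replicate 2).

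Some genes of resident macrophages and of those that recycle iron from red blood cells rose. Of 19 measured 5 rose, each in all fits without 1 array, 0 fell and 14 did not pass, with a median of 0.43. Slc40a1, ferroportin, the cellular iron exporter, measured 3.22, 4.27, 3.75 and 4.35 in control and 6.24, 6.37 and 5.57 at withdrawal (2.16 ± 0.38, 4.48-fold, limma, adjusted p = 0.00465). Slc11a1, which moves metal ions out of the phagosome, measured 3.00, 3.24, 3.23 and 2.45 in control and 4.64, 5.36 and 4.50 at withdrawal (1.85 ± 0.27, adjusted p = 0.00128). Spic, the transcription factor of red pulp macrophages, measured 2.41, 2.52, 2.45 and 2.80 in control and 4.44, 4.13 and 3.07 at withdrawal (1.34 ± 0.25, adjusted p = 0.00681). Vcam1, an adhesion molecule of these cells and of endothelium, differed by 1.53 ± 0.23, and the secreted protein Cd5l rose from the floor, at 0.90, 0.87, 1.28 and 1.02 in control and 2.28, 4.34 and 2.85 at withdrawal. Groups did not overlap for 7 higher members, the 5 that rose among them, and for 1 lower member that did not pass. Over all genes the shares were 8.14% higher and 6.94% lower. The lower one was Tfrc, the transferrin receptor that takes up iron, at 5.80, 5.40, 6.08 and 5.76 in control and 4.86, 4.99 and 5.03 at withdrawal (-0.80 ± 0.31, adjusted p = 0.188). The hemoglobin scavenger receptor Cd163 differed by 0.08 ± 0.25 and Timd4, a receptor for dying cells, by 0.19 ± 0.32, both with overlapping groups.

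Some genes of lipid mediators, chemokines and lymphoid cells passed as well. The macrophage marker lists moved with these genes too, and their part was not tested. Of 18 genes for prostaglandins and leukotrienes 4 rose and 0 fell, with a median of 0.36. Pla2g7, which breaks down platelet-activating factor, measured 4.66, 3.94, 4.74 and 4.71 in control and 5.78, 6.07 and 5.72 at withdrawal (1.34 ± 0.21, limma, adjusted p = 0.0023). The prostaglandin D synthases Hpgds and Ptgds differed by 1.22 ± 0.27 and 0.98 ± 0.22, and Alox5ap, which presents arachidonic acid to 5-lipoxygenase, by 0.85 ± 0.18; these 3 had adjusted p of 0.11 for Hpgds without withdrawal replicate 2, 0.0983 for Ptgds without withdrawal replicate 1 and 0.0911 for Alox5ap without withdrawal replicate 2. Of 30 chemokines, related cytokines and receptors 1 rose and 2 fell. The gene that rose was Cxcl16, a membrane-bound chemokine that also binds oxidised lipoprotein, at 4.94, 5.53, 5.23 and 4.84 in control and 6.21, 6.64 and 6.09 at withdrawal (1.18 ± 0.17, adjusted p = 0.00131). The 2 that fell were the scavenging receptor Ackr3, by 1.12 ± 0.24, and Il34, a growth factor for macrophages, by 0.63 ± 0.13 (adjusted p = 0.0909 for Ackr3 without withdrawal replicate 2 and 0.0573 for Il34 without withdrawal replicate 1). The macrophage chemokines Ccl3, Ccl6 and Ccl9 had groups that did not overlap and missed the threshold, at 1.47 ± 0.45, 1.28 ± 0.38 and 1.10 ± 0.31. In the whole list of 30, 20 means were higher and 10 lower. Groups did not overlap for 7 higher and 3 lower members, against 8.14% and 6.94% of all genes. Of 20 T and NK cell genes 2 rose. Il7r, the interleukin 7 receptor chain, measured 1.45, 1.48, 1.86 and 0.82 in control and 3.91, 5.93 and 4.35 at withdrawal (3.33 ± 0.63, adjusted p = 0.0078, and 0.0503 without withdrawal replicate 2), and Cd4 measured 1.35, 1.21, 1.23 and 1.09 in control and 2.41, 1.38 and 2.01 at withdrawal (adjusted p = 0.0975 for Cd4 without withdrawal replicate 1). The defining T cell gene Cd3e lay at the floor on all 7 arrays. In 15 of the 20 genes both group means were at the floor, Cd4 among them at 1.22 and 1.93.

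**Figure D3:**
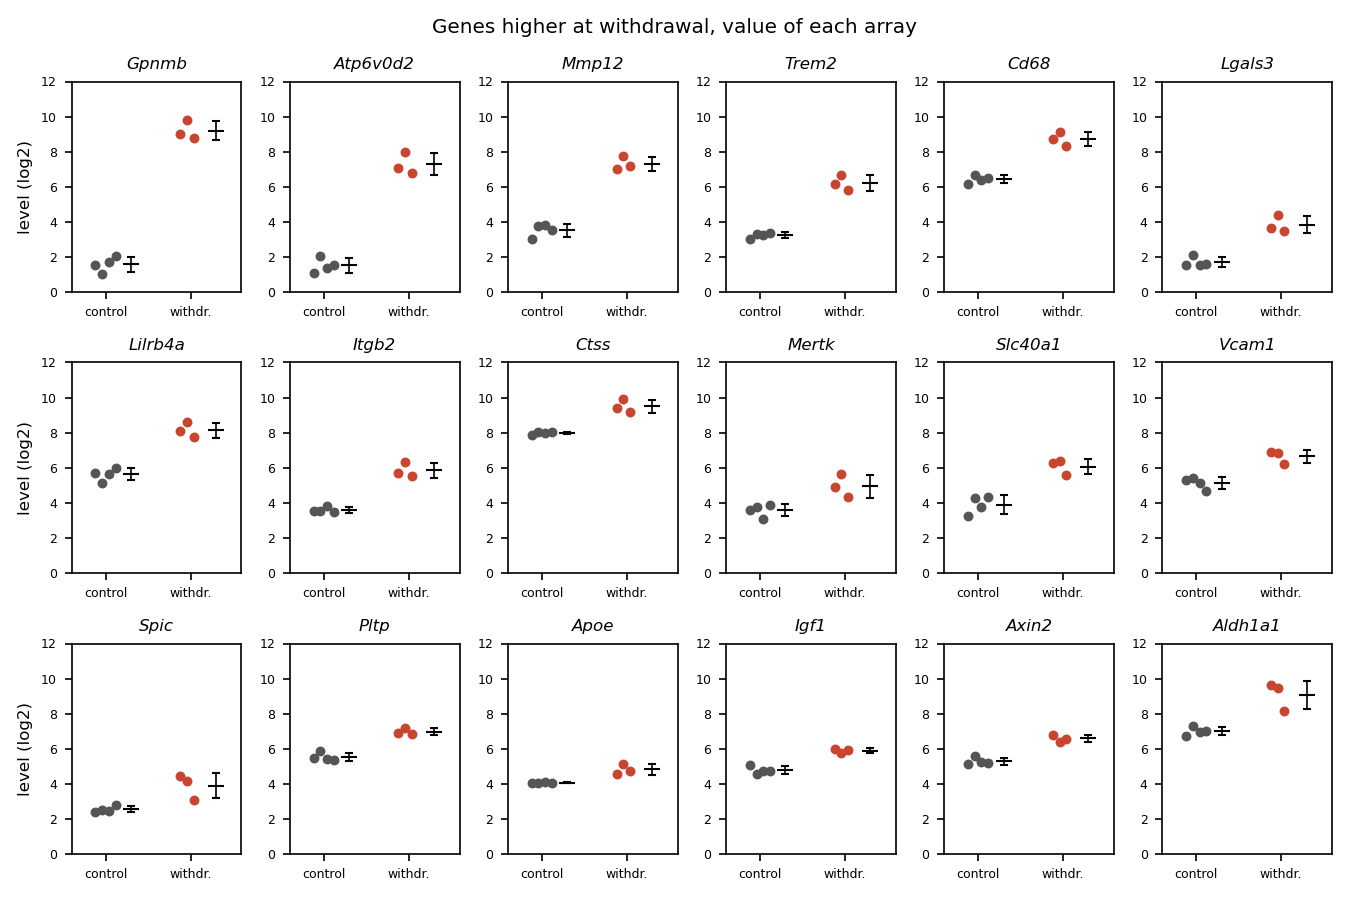
Level (log2, RMA) of 18 genes that rose, drawn as for the genes that fell, with withdrawal arrays in red. Gpnmb and Atp6v0d2 climb from the floor to between 8.77 and 9.81 and between 6.79 and 8.01, while Apoe and Spic stay low on the scale.

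Genes of the outer cortex rose in part. Of 16 zona glomerulosa genes 5 rose (3 in each fit without 1 array, and 3 with median-gene centring), 0 fell and 11 did not pass, with a median of 0.42. In the WNT and R-spondin list 3 of 32 rose and 1 fell. Axin2, a feedback inhibitor that WNT signalling induces, measured 5.13, 5.58, 5.25 and 5.20 in control and 6.77, 6.40 and 6.57 at withdrawal, with 0.82 between the nearest arrays (1.29 ± 0.16, limma, adjusted p = 0.000361). Lgr5, an R-spondin receptor, measured 6.73, 6.46, 7.01 and 6.74 in control and 7.60, 7.60 and 7.54 at withdrawal (0.84 ± 0.15, adjusted p = 0.00559). Wnt4, the WNT ligand of the glomerulosa, measured 7.22, 6.69, 6.97 and 6.95 in control and 7.69, 7.73 and 7.34 at withdrawal (adjusted p = 0.0298, and 0.13 without withdrawal replicate 2). Lrp5, a WNT co-receptor, went down, at 7.37, 6.89, 7.36 and 7.49 in control and 6.61, 6.32 and 6.47 at withdrawal (-0.81 ± 0.13, adjusted p = 0.00317). Nr0b1, the DAX-1 repressor of steroid genes, measured 5.47, 5.28, 5.67 and 5.26 in control and 6.26, 6.47 and 6.60 at withdrawal (1.02 ± 0.17, adjusted p = 0.00364). The angiotensin receptor Agtr1b differed by 0.64 ± 0.18 and Agtr1a by -0.18 ± 0.18; neither passed (adjusted p = 0.0639 and 0.692). In hedgehog signalling 1 of 12 genes rose (0 with median-gene centring), which is 8.33% against 4.3% of all genes. It was Gli2, whose group means of 1.30 and 1.87 both lay at the floor (0.57 ± 0.14, adjusted p = 0.14 for Gli2 without withdrawal replicate 3). Shh, the signal of the subcapsular cells, measured 5.55, 5.56, 5.55 and 5.58 in control and 6.13, 5.58 and 5.54 at withdrawal.

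Of 27 ion channel and pump genes 2 fell and 2 rose (1 with median-gene centring). Clcn2, a chloride channel that helps set the membrane voltage of glomerulosa cells, measured 6.25, 6.09, 5.71 and 5.71 in control and 5.29, 4.68 and 5.01 at withdrawal (-0.95 ± 0.18, limma, adjusted p = 0.00678). Kcna4, a voltage-gated potassium channel, differed by -0.61 ± 0.13, Slc12a2, a sodium, potassium and chloride cotransporter, by 0.61 ± 0.14 and Atp1b1, the beta subunit of the sodium pump, by 0.57 ± 0.12. These 3 had adjusted p of 0.0787 for Kcna4 without withdrawal replicate 2, 0.0901 for Slc12a2 without withdrawal replicate 2 and 0.06 for Atp1b1 without withdrawal replicate 1. Outside that list, Kcnd2, another voltage-gated potassium channel, had one of the larger rises, at 4.82, 4.76, 4.98 and 4.62 in control and 6.68, 6.46 and 6.36 at withdrawal (1.70 ± 0.18, adjusted p = 9.18e-05), and so had Gabrg3, a subunit of the GABA-A receptor, at 3.49, 3.46, 3.72 and 3.49 in control and 6.65, 5.78 and 6.18 at withdrawal. The background potassium channel Kcnk9 differed by 0.14 ± 0.15 and the calcium channel Cacna1h by -0.51 ± 0.21, without passing.

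Growth signals changed gene by gene. Of 22 genes of the IGF axis and imprinted growth genes 5 rose (2 with median-gene centring) and 2 fell, and 1 of them, Igf1, passed in each fit without 1 array. Igf1, the growth factor, measured 5.08, 4.56, 4.72 and 4.75 in control and 5.97, 5.73 and 5.95 at withdrawal (1.10 ± 0.17, limma, adjusted p = 0.00202), with 0.65 between the nearest arrays. The imprinted gene Peg3 differed by 0.65 ± 0.14, the insulin receptor Insr by -0.42 ± 0.10 and Igf2r, which clears IGF-II, by -0.35 ± 0.08, with adjusted p of 0.0721 for Peg3 without withdrawal replicate 2, 0.11 for Insr without withdrawal replicate 1 and 0.0941 for Igf2r without withdrawal replicate 2. In the TGF-beta and BMP list 3 of 28 rose and 1 fell, against 1 higher and 3 lower with median-gene centring. Bmp7, a bone morphogenetic protein, measured 7.62, 7.87, 7.57 and 7.40 in control and 6.03, 5.83 and 6.77 at withdrawal (-1.41 ± 0.24, adjusted p = 0.00342). The signal-dependent regulator Id3 and the ligand Tgfb2 differed by 0.64 ± 0.14 and 0.62 ± 0.16 (adjusted p = 0.11 for Id3 without withdrawal replicate 2 and 0.179 for Tgfb2 without withdrawal replicate 2). Among 20 cell junction genes Gja1 fell and 3 rose, against 3 lower and 2 higher with median-gene centring. Of those that rose, Cdh2, N-cadherin, measured 6.44, 5.84, 6.41 and 6.39 in control and 6.90, 7.00 and 7.15 at withdrawal (0.75 ± 0.15, adjusted p = 0.00863). In the notch list 1 of 17 rose (5.88% called against 4.3% of all genes), Maml2, a notch coactivator, at 0.72 ± 0.11.

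Medullary genes were higher in part. Of 27 genes of the chromaffin granule and neuroendocrine cells 5 rose (3 with median-gene centring), 0 fell and 22 did not pass, 24 means were higher and the median was 0.51. Gata3, a transcription factor that chromaffin cells need, measured 4.97, 4.97, 5.05 and 4.93 in control and 5.85, 6.05 and 6.32 at withdrawal (1.09 ± 0.14, limma, adjusted p = 0.000502). Cplx2, complexin 2, which clamps vesicle fusion, measured 4.28, 4.60, 4.32 and 4.14 in control and 5.35, 5.28 and 5.24 at withdrawal, and Pcsk1n, an inhibitor of prohormone convertase, measured 3.73, 3.68, 3.83 and 3.63 in control and 4.59, 4.42 and 4.37 at withdrawal. These groups did not overlap. Of 12 catecholamine genes 3 rose, of which Ddc, the aromatic amino acid decarboxylase, measured 6.32, 6.43, 6.71 and 6.34 in control and 7.06, 7.03 and 7.17 at withdrawal (0.64 ± 0.13, adjusted p = 0.00932). Cyb561, the electron carrier of the granule membrane, and the monoamine oxidase Maob differed by 0.67 ± 0.15 and 0.85 ± 0.23 (adjusted p = 0.0909 for Cyb561 without withdrawal replicate 2 and 0.143 for Maob without withdrawal replicate 2). The defining enzymes overlapped between groups: Th measured 10.11, 8.91, 9.93 and 9.45 in control and 9.77, 9.94 and 9.86 at withdrawal, Dbh differed by 0.22 ± 0.17 and Pnmt by 0.36 ± 0.35. Chgb, chromogranin B, differed by -0.01 ± 0.08 while Chga differed by 0.40 ± 0.13 (adjusted p = 0.127). The mean of the chromaffin list lay between 6.42 and 6.83 on control arrays and between 7.03 and 7.18 at withdrawal, and that of the catecholamine list between 6.67 and 7.06 and between 7.16 and 7.29. The share of medulla in each gland was not measured, and its part in these rises was not tested. Of 14 Schwann and glial genes 1 passed (0 with median-gene centring), which is 7.14% against 4.3% of all genes. The median was 0.39, and Sox10 lay at the floor on all 7 arrays.

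Genes of the vessel wall fell in part. Of 32 endothelial genes 4 fell (2 in each fit without 1 array, and 9 with median-gene centring), 0 rose and 28 did not pass, 25 means were lower and the median was -0.24. Gpihbp1, which holds lipoprotein lipase on the capillary wall, measured 8.10, 7.98, 8.27 and 8.20 in control and 7.31, 7.29 and 7.06 at withdrawal (-0.92 ± 0.12, limma, adjusted p = 0.000343), with 0.68 between the nearest arrays. Aplnr, the apelin receptor, measured 6.31, 5.88, 6.03 and 5.59 in control and 4.87, 3.86 and 5.05 at withdrawal (-1.35 ± 0.27, adjusted p = 0.00941), with withdrawal replicate 2 the lowest. Kdr, the main receptor for VEGF, measured 7.61, 7.68, 7.45 and 7.49 in control and 6.65, 6.84 and 6.87 at withdrawal (-0.77 ± 0.17, adjusted p = 0.016), and Mmrn2 differed by -0.49 ± 0.10; without 1 array the adjusted p was 0.0686 for Kdr without withdrawal replicate 1 and 0.0619 for Mmrn2 without withdrawal replicate 1. Esm1, a gene of growing vessel tips, measured 6.02, 5.92, 5.72 and 5.44 in control and 4.96, 4.06 and 3.95 at withdrawal and missed the threshold (-1.45 ± 0.41, adjusted p = 0.064). The general markers Pecam1 and Cdh5 differed by -0.27 ± 0.08 and -0.33 ± 0.12 (adjusted p = 0.0845 and 0.17). The list mean lay between 5.40 and 5.55 in control and between 5.18 and 5.25 at withdrawal. Smooth muscle and pericyte genes gave 0 of 14 past limma's threshold, with 1 higher and 0 lower at an unadjusted p under 0.05 and a median of -0.05. The capsule and fibroblast list had 1 of 15 past the threshold, which is 6.67% against 4.3% of all genes. It was Gsn, gelsolin, which rose by 0.54 ± 0.12 (adjusted p = 0.0733 for Gsn without withdrawal replicate 1). Of 36 collagens and matrix glycoproteins 1 passed, which is 2.78% against 4.3% of all genes and so not above the background. It was the laminin chain Lama2, which rose by 0.59 ± 0.13 (adjusted p = 0.0732 for Lama2 without withdrawal replicate 3). Col1a1, a chain of the main fibrillar collagen, measured 4.36, 4.51, 4.99 and 4.51 in control and 5.40, 4.33 and 5.05 at withdrawal, with overlapping groups.

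**Figure D4:**
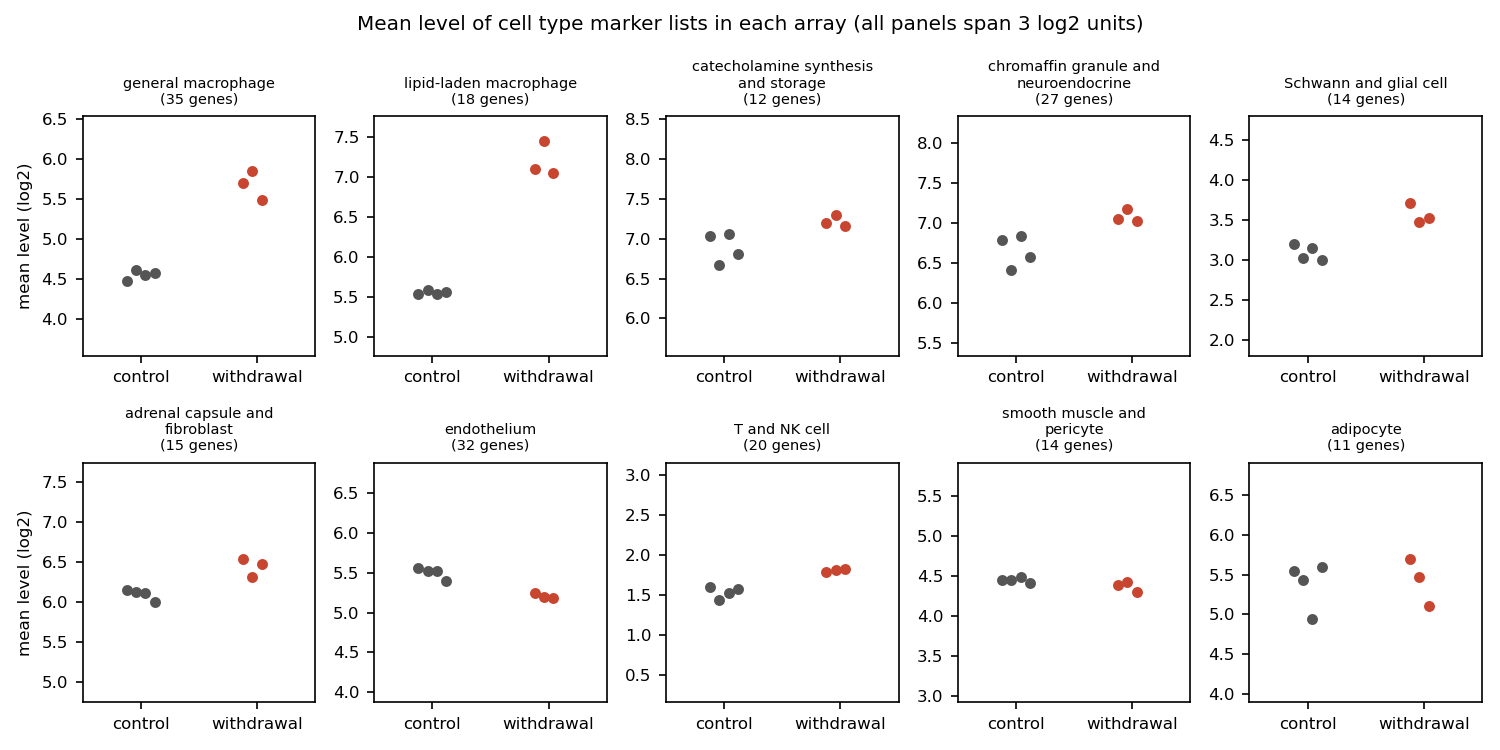
Mean log2 level of each of 10 cell type marker lists on the 4 control arrays (grey) and the 3 withdrawal arrays (red), in panels that all span 3 log2 units. The 2 macrophage lists separate the groups most, at 4.47 to 4.61 against 5.48 to 5.85 and at 5.54 to 5.59 against 7.05 to 7.45.

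The list of 22 genes for the drug's own receptor, the glucocorticoid receptor, holds targets of the receptor together with Nr3c1, Nr3c2 and Fkbp4. In it 0 rose and 1 fell by limma, which is 4.55% against 4.3% of all genes and so near the background. The median was 0.21; at an unadjusted p under 0.05, 6 were higher and 1 lower. The gene that fell was Cebpb, a transcription factor, at 6.10, 5.85, 6.08 and 6.24 in control and 5.54, 5.63 and 5.32 at withdrawal (-0.57 ± 0.11, adjusted p = 0.0106). Fkbp5, the usual readout of receptor activity, had means of 5.15 ± 0.15 (SD, n = 4) in control and 5.36 ± 0.18 (SD, n = 3) at withdrawal, Tsc22d3, which encodes GILZ, measured 4.05, 4.11, 4.10 and 4.03 in control and 4.21, 4.24 and 4.60 at withdrawal, and Zbtb16 measured 4.70, 5.39, 4.55 and 5.41 in control and 5.17, 4.65 and 4.82 at withdrawal. The groups did not overlap, with higher levels at withdrawal, for 7 of the 22 (8.14% of all genes), and with lower ones for Cebpb alone. The 7 missed the threshold. Among them Per1, a clock gene that the receptor induces, had the largest difference of the list, at 5.21, 5.27, 5.83 and 5.90 in control and 6.16, 6.71 and 6.29 at withdrawal (0.84 ± 0.32, adjusted p = 0.189). Fkbp5 and Zbtb16 overlapped between groups; Tsc22d3 did not, and missed the threshold (0.28 ± 0.12, adjusted p = 0.257). The receptor gene Nr3c1 measured 5.46, 5.62, 5.60 and 5.31 in control and 5.63, 6.07 and 6.00 at withdrawal, higher on every withdrawal array without passing (0.41 ± 0.12, adjusted p = 0.085). The time between the last intake of the drug and harvest is not given in the sources used here.

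Of 24 immediate early and stress genes 4 rose, 0 fell and 21 means were higher, with a median of 0.47. Atf3, a stress-induced factor, measured 1.91, 3.13, 2.98 and 3.02 in control and 4.36, 5.09 and 3.99 at withdrawal (1.72 ± 0.30, limma, adjusted p = 0.00465), and Klf2 differed by 0.66 ± 0.13. Klf4 and Klf6 differed by 1.07 ± 0.25 and 0.56 ± 0.13 (adjusted p = 0.0893 for Klf4 without withdrawal replicate 3 and 0.125 for Klf6 without withdrawal replicate 1). The classical members spread widely within groups: Nr4a1 measured 6.64, 8.39, 7.26 and 7.94 in control and 7.93, 9.27 and 8.27 at withdrawal and Egr1 measured 5.89, 7.30, 5.60 and 6.70 in control and 7.30, 7.46 and 7.10 at withdrawal, and neither passed. In the clock list 1 of 18 passed, which is 5.56% against 4.3% of all genes. It was Hlf, an output factor, at 5.35, 5.66, 5.42 and 5.02 in control and 6.02, 6.09 and 6.17 at withdrawal (0.73 ± 0.13, adjusted p = 0.00633). Control replicate 2 stood apart from the other controls in the core clock: Arntl measured 6.50, 4.24, 6.10 and 6.26 in control and 5.02, 5.15 and 5.11 at withdrawal and Npas2 measured 4.94, 2.03, 4.30 and 4.47 in control and 2.92, 2.84 and 3.21 at withdrawal. The hour of harvest is not given in the sources used here, and its part in these values was not tested.

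Other lists held few calls. The called shares were 15% for matrix proteases, 8% for growth factors, 20% for heat shock genes and 10.5% for cortical identity factors, against 4.3% of all genes. In the matrix protease list Mmp12 and Mmp14 rose and Mmp19 fell, out of 20, with Mmp14 at 0.42 ± 0.11 and Mmp19 at -0.82 ± 0.14. Among 25 growth factors and receptors the lymphatic growth factor Vegfc rose by 0.97 ± 0.25 and Fgfr1 fell by 0.61 ± 0.14; with median-gene centring 0 were higher and 2 lower. Of 15 heat shock genes the small heat shock protein Hspb6 rose, at 5.79, 5.74, 5.34 and 5.65 in control and 6.43, 6.52 and 6.39 at withdrawal (0.82 ± 0.16, limma, adjusted p = 0.00759). In that list the mitochondrial chaperones Hspe1 and Hspa9 fell, by 0.47 ± 0.12 and 0.32 ± 0.08. In the list of 19 transcription factors of cortical identity, Cited2, a partner of the adrenal regulators, rose by 0.93 ± 0.18 next to Nr0b1. Single falls came from Car9 among 16 hypoxia genes, Map1lc3a among 20 autophagy genes, Gbp3 among 20 interferon-stimulated genes and H2-Ke6 (Hsd17b8) among 19 steroid-modifying enzymes and sex steroid receptors, at -0.60 ± 0.14, -0.41 ± 0.11, -0.54 ± 0.14 and -0.47 ± 0.12. The called shares of these lists, in the same order 6.25%, 5%, 5% and 5.26%, lay near the 4.3% of all genes. Car9 had means of 2.41 in control and 1.81 at withdrawal, at the edge of the floor. With median-gene centring 3 interferon-stimulated genes and 2 autophagy genes were lower. Hspb6 and Mmp19 passed in each fit without 1 array. For the others the adjusted p was 0.153 for Mmp14 without withdrawal replicate 1, 0.11 for Vegfc without withdrawal replicate 2, 0.121 for Fgfr1 without withdrawal replicate 2, 0.161 for Hspe1 without withdrawal replicate 1, 0.121 for Hspa9 without withdrawal replicate 2, 0.0562 for Cited2 without withdrawal replicate 2, 0.0975 for Car9 without withdrawal replicate 3, 0.197 for Map1lc3a without withdrawal replicate 3, 0.152 for Gbp3 without withdrawal replicate 2 and 0.166 for H2-Ke6 without withdrawal replicate 3. Of 8 genes of MHC class II presentation 0 passed by limma, with 0 higher and 0 lower at an unadjusted p under 0.05.

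In each list of genes of dividing or dying cells 0 or 1 gene passed, which is near the share of all genes (4.3%, or about 1 gene in a list of such size) and is not a result about these lists. Of 26 mitosis genes 0 passed by limma, 0 were higher and 2 lower at an unadjusted p under 0.05, and 23 had lower means (median -0.28). Mki67, a protein of cycling cells, measured 4.80, 4.41, 4.67 and 4.82 in control and 3.86, 4.41 and 4.60 at withdrawal. Of 28 DNA replication genes 1 fell, the helicase factor Cdc45, at -0.80 ± 0.21 (adjusted p = 0.184 for Cdc45 without withdrawal replicate 3). Among 29 apoptosis and p53 target genes 0 passed by limma, 5 were higher and 2 lower at an unadjusted p under 0.05, and the median was 0.16; Cdkn1a, the p21 arrest protein, measured 6.67, 5.93, 6.13 and 6.34 in control and 6.65, 6.99 and 6.79 at withdrawal, with overlapping groups. The unfolded protein response list also gave 0 of 22 by limma, with 0 higher and 3 lower at an unadjusted p under 0.05, and 2 lower with median-gene centring.

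Markers of some neighbouring tissues and blood cells lay at the floor and those of others did not. All 9 kidney genes, 5 of 6 pancreas genes, 10 of 11 B cell genes and 11 of 14 neutrophil genes had both group means under 2, against 1 of 11 adipocyte genes, 2 of 7 liver genes and 5 of 10 mast cell genes. Of the adipocyte genes 0 of 11 passed by limma, with 1 higher and 1 lower at an unadjusted p under 0.05. Among them Ucp1, the brown fat uncoupling protein, ranged from 1.37 to 5.38 among the controls and from 1.16 to 1.91 at withdrawal. The liver gene Alb ranged from 1.28 to 5.82 among the controls and from 2.86 to 2.98 at withdrawal. In the mast cell list 0 of 10 passed by limma, with 2 higher and 1 lower at an unadjusted p under 0.05, and Cpa3, the mast cell carboxypeptidase, measured 4.03, 3.57, 2.79 and 2.94 in control and 4.54, 4.20 and 4.58 at withdrawal.

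**Figure D5:**
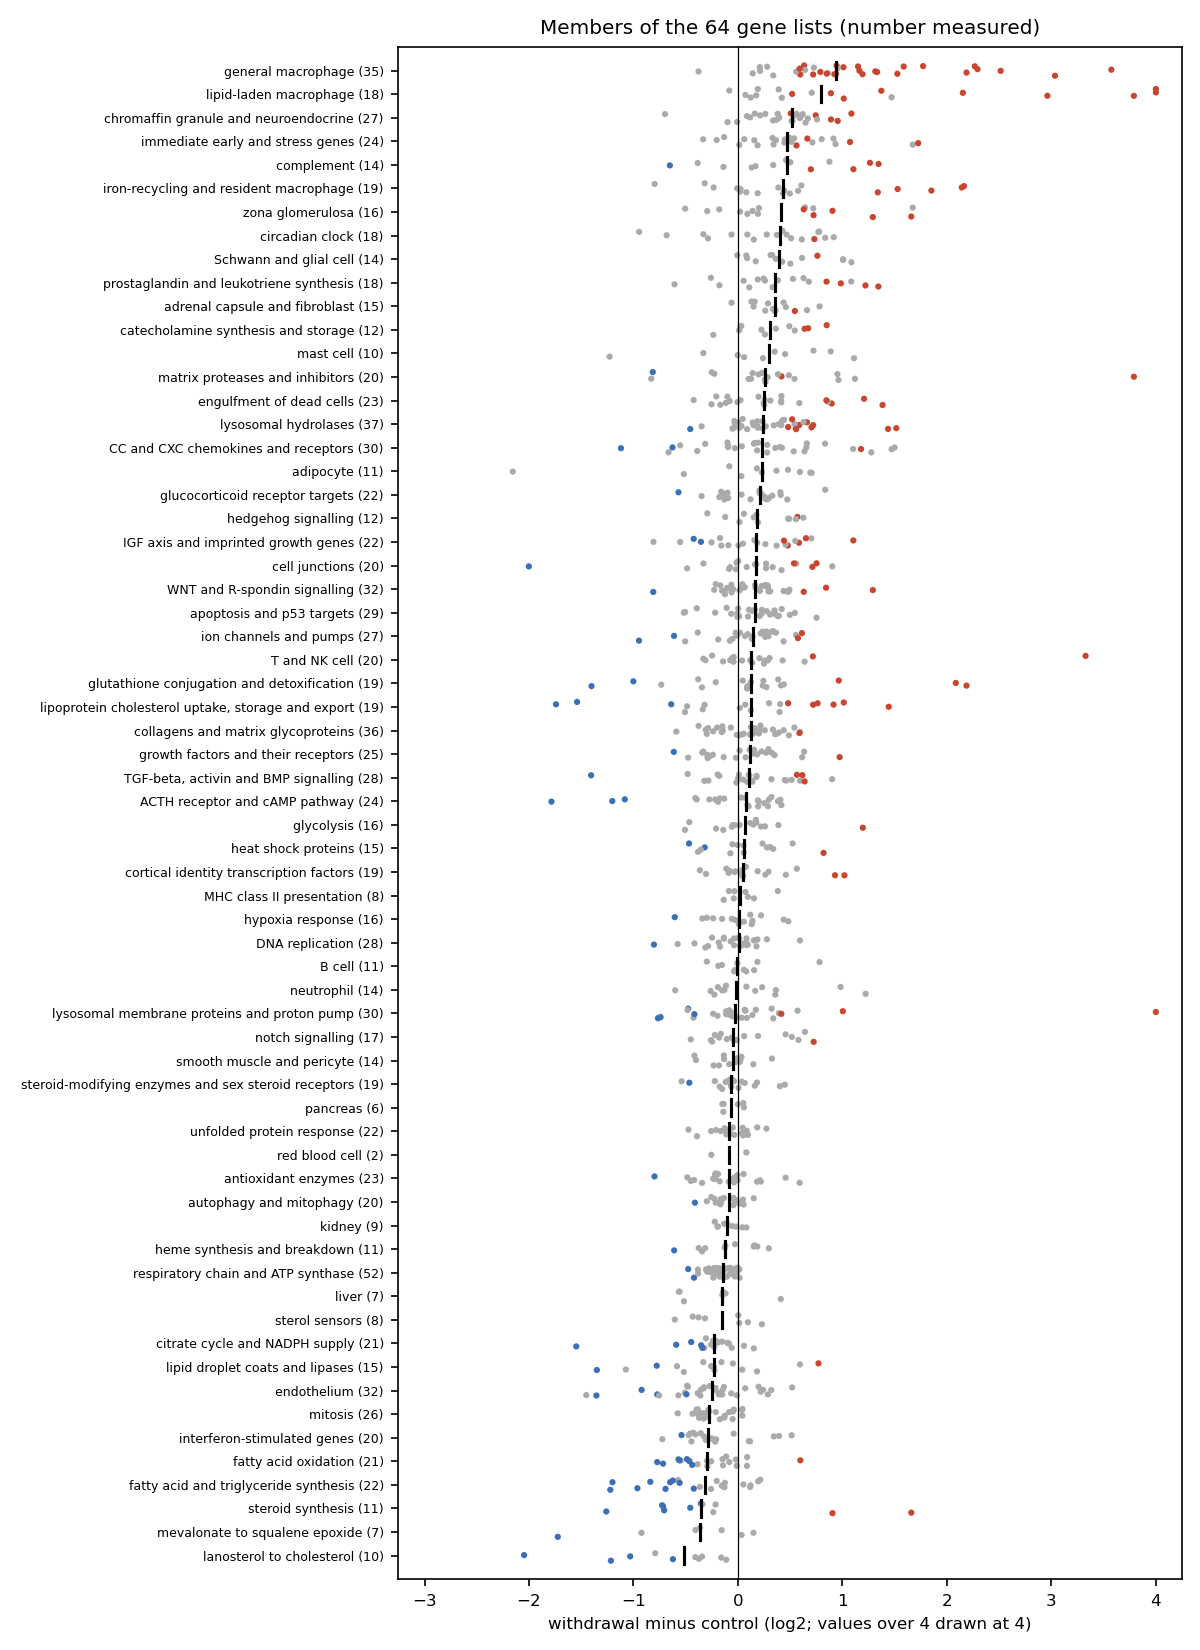
Difference between withdrawal and control (log2, horizontal; values over 4 are drawn at 4) for every measured member of the 64 gene lists, 1 row a list, with members that rose in red, members that fell in blue, all others in grey and a black bar at the list's median. Rows run from a median of -0.52 for the enzymes from lanosterol to cholesterol to 0.94 for general macrophage genes.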

How the data were processed

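Per the labels' protocols, adrenal RNA was labelled with a WT Pico kit and hybridised to one-colour Affymetrix arrays. Per the submitters' processing notes, the authors made the deposited log2 values with RMA in oligo. The sources used here do not give versions, annotation, filters, scan batches or the hour of harvest. RMA makes arrays share 1 distribution, so a shift of all genes cannot be seen. The table holds 32736 probe sets between -0.19 and 12.08, with array medians of 1.55 to 1.643. Only the 22399 probe sets with 1 gene symbol were used (1607 had several and 8730 none); 22261 matched RefSeq genes (GRCm38.p6, also the source of promoter sequences) by Entrez identifier. For the 807 genes with several, the probe set of highest mean was kept, leaving 21439 genes. Some genes have near-identical relatives whose signal a probe set may share. The mean correlation of an array with its group was 0.984 to 0.988. The number of arrays limits the precision.

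All 15 arrays entered 1 model of 4 groups in limma 3.58.1 (R 4.3.3, statmod 1.5.0), using lmFit and eBayes at default options. Adjustment was by Benjamini-Hochberg across the 21439 genes and the threshold 0.05. The labels call the arrays biological replicates and name no animals, so p-values measure the spread between these samples. On simulated data with 200 changed genes among 21439 for this comparison, the test recovered 22.4% of changes of 0.5 log2 units, 83.6% of 1 and 97% of 2, with 7 false calls. The simulated noise was normal and independent, took its spread from the model and had no floor. Recovery in the real arrays may be lower, above all for falls of genes at the floor. A gene that did not pass is therefore not shown to be unchanged.

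The members and the 64 gene lists were chosen with earlier results of these data known, so lists are described by counts and medians without a test of their own. Genes were named by rule: the 15 largest rises and 15 largest falls past the threshold whose groups did not overlap, and 10 of each with both group means of at least 4. Names of predicted, clone, microRNA, immunoglobulin, olfactory and similar families were left out. Up to 8 called members of each list in each direction followed, with the leading 6 members of a list, uncalled members that differed by at least 0.5 and Nr3c1, Cyp17a1, Mki67, Th, Sox10 and Gapdh. The text takes its genes from these. Alternatives were a filter on dim genes, other normalizations and probe set rules, the 7 arrays alone, the replicate block, trend and robust options and leaving out each array.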

Additional observations from a re-analysis of the deposited data

Results flagged for a closer look

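In groups of 4 arrays, a control array that stood far from the other 3 was looked for in 194 genes and 64 lists, where chance flags about 1 in 20. Control replicate 2 stood apart most often. It was the lowest array, with the range of the other 3 in brackets, for Vnn3 at 2.74 (4.68 to 4.82), Tacr2 at 6.60 (7.13 to 7.22), Cryba4 at 5.83 (6.97 to 7.10), Mrap at 8.92 (9.18 to 9.22), Msmo1 at 7.14 (7.40 to 7.40), Cdh2 at 5.84 (6.39 to 6.44) and Pla2g7 at 3.94 (4.66 to 4.74). It was the highest for Wfdc17 at 6.48 (5.40 to 5.54), Aldh1a7 at 6.32 (4.33 to 4.42) and Lgals3 at 2.12 (1.52 to 1.57), and its mean of the cell junction list was 5.02 (5.18 to 5.18).

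Control replicate 1 stood apart for Abcb1b at 9.86 (10.02 to 10.04), Me1 at 8.98 (9.27 to 9.33) and Atf3 at 1.91 (2.98 to 3.13), and for the means of the clock list at 5.03 (4.94 to 4.96) and the mast cell list at 2.21 (1.77 to 1.83). Control replicate 3 stood apart for Gabrg3 at 3.72 (3.46 to 3.49). Control replicate 4 did so for Ctsf at 8.57 (8.81 to 8.84), Atp6v1e1 at 9.14 (9.35 to 9.37) and the mean of the zona glomerulosa list at 6.53 (6.62 to 6.63). Without control replicate 2 the counts were 420 genes higher and 354 lower.

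Among the 10337 probe sets that carry no symbol or several, which no comparison above used, 45 were higher at withdrawal and 37 lower by limma.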

How the results depend on the processing

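The 534 higher and 387 lower genes became 311 and 213 when only the 7 arrays entered the fit, 300 and 244 with the replicate number as a block, and 341 and 853 with each array centred on its median gene, an alternative chosen after seeing the data. Leaving out each array in turn gave 243 to 469 higher and 216 to 354 lower genes, with the fewest without withdrawal replicate 2, and 106 to 191 and 69 to 88 at 2-fold or more. The filter on dim genes, further quantile normalization, per-array median centring, the mean or most variable probe set and trend with robust options stayed within 1.5 times of both counts. Replicate numbers did not pair the arrays: deviations of equal numbers correlated at -0.03, -0.007 and -0.009, so the block is given only here. Of 194 called genes considered for naming, 0 changed sign in any alternative and 103 passed in each of the 7 fits without 1 array; 68 lost the threshold with the 7 arrays alone, 59 with the block, 28 with centring on the median gene and 76 without withdrawal replicate 2. The medians of 18 of the 64 lists changed sign in some alternative. The cause of these changes was not tested. Differences from a level under 2 are limited by the floor.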
